A study of Homo sapiens with 25 samples.

Results

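H3K4me3 peaks that lie inside PML domains were examined in MDA-MB-231, an established human line from triple-negative breast cancer. They were chosen by measured peak calls, as the peaks of the control H3K4me3 list that were under 3 kb wide and whose midpoint fell in a PML domain, and 2077 of the 22211 control peaks met both conditions. The 18490 control peaks of the same width range with a midpoint outside PML domains were set beside them. Among all 20567 control peaks under 3 kb, the PML-domain peaks made up 10.1%. The choice used the control H3K4me3 list and the PML list, so membership and control fold enrichment are given as descriptions only.

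Chromatin immunoprecipitation followed by sequencing was run on PML knockdown cells, in which a lentivirus delivered a short hairpin RNA against PML, and on control cells, for LMNB1, H3K9me3, H3K4me3 and H3K27ac with 2 libraries per target and condition. PML itself was profiled in 3 libraries with no condition in their titles, so the PML domains have no knockdown counterpart. Cells were fixed with disuccinimidyl glutarate and formaldehyde. Of the 25 libraries of the series, 19 belong to the groups of the 9 lists used here, 5 of broad domains and 4 of peaks, with 1 list per target and condition. Values per replicate and read depths are not part of these lists, so no difference could be tested against the spread between replicates. The data describe 1 cell line and 1 silenced gene, and the lists cannot check how far PML was depleted. Of the markers of the line, 7 of 7 mesenchymal-like basal genes had an H3K4me3 peak at their start in knockdown, and 7 of 7 in control. Luminal genes had 6 and 5 of 8 in the knockdown and control lists, epithelial genes 4 and 4 of 5, immune genes 1 and 1 of 5, and stromal and vessel genes 2 and 2 of 5. Over all protein-coding genes, 61.8% of starts had a control H3K4me3 peak. The luminal control count was near that share and the epithelial one above it.

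H3K4me3 is a histone mark laid down around active or poised transcription start sites, above all at CpG islands, and weaker H3K4me3 is also found at some enhancers. PML is the scaffold of PML nuclear bodies, dynamic structures that gather many nuclear proteins. LMNB1 encodes lamin B1, a lamina protein whose domains are gene-poor and mostly silent. H3K9me3 marks constitutive heterochromatin and the clusters of KRAB zinc-finger genes. H3K27ac marks active promoters and enhancers.

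The sequences below are stretches of such peaks from the hg38 reference, chosen to show a strong CpG-rich promoter, a zinc-finger promoter in H3K9me3, a promoter whose printed stretch has no CG, promoter peaks absent from the knockdown list, and distal peaks. For promoters, capitals mark each CG, and the stretch lies upstream of the start on the gene's own strand, 5′ to 3′. BBS10 lies at chr12:76348416-76348615 on the minus strand, ZNF431 at chr19:21141824-21142023 on the plus strand, IFI44L at chr1:78620182-78620381 on the plus strand and ESRRG at chr1:216723473-216723672 on the minus strand.
BBS10: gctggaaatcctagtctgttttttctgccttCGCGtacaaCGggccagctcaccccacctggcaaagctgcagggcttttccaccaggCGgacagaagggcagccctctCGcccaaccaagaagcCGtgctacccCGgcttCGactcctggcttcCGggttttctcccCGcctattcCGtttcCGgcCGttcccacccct
ZNF431: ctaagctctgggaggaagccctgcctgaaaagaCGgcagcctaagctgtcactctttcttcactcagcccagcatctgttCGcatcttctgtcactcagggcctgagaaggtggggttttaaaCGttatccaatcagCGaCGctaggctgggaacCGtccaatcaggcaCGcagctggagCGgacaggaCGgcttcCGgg
IFI44L: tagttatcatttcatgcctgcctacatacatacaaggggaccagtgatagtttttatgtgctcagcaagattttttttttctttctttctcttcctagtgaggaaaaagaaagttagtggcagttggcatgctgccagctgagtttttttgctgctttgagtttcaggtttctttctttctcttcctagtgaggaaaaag
ESRRG: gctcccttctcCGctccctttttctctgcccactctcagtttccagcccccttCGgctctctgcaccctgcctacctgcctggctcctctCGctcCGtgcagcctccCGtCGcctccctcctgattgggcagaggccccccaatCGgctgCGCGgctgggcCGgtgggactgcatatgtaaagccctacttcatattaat
The BBS10 stretch holds 13 CG, that of ZNF431 10, that of ESRRG 10 and that of IFI44L 0. The KYNU stretch is intronic, from 73 to 272 bases downstream of the start, at chr2:142877737-142877936 on the plus strand, and holds 1 CG.
KYNU: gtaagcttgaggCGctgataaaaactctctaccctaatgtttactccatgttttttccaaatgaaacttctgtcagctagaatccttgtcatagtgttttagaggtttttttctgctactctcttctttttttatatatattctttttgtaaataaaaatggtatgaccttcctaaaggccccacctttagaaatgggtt
For 2 distal peaks, printed on the plus strand, capitals mark matches to TGANTCA, where N is any base. The core of AP-1 binding sites has C or G there, so TGANTCA is looser than that core. The match printed below has A there. The first peak lies at chr13:103282914-103283113, nearest to ENSG00000285789, and overlapped H3K27ac peaks of 35.2-fold in knockdown and 37.6-fold in control. The second lies at chr1:117753996-117754195, nearest to PNRC2P1, holds no match, and had no knockdown H3K4me3 peak.
ENSG00000285789: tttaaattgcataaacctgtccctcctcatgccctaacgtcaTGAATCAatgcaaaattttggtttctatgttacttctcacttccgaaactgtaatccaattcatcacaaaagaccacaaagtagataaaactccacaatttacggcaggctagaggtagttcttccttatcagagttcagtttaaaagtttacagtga
PNRC2P1: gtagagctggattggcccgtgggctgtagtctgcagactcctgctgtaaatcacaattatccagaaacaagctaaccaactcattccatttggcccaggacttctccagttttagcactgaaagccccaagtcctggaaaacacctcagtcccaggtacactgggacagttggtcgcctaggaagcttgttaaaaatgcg

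PML-domain peaks were sparse, and fewer of them sat at gene starts than among the other peaks. Their density was 2.14 per Mb over 970.2 Mb of PML domain, against 9.52 per Mb over 1941 Mb outside. Of the 2077 peaks, 936 (45.1%) lay within 1 kb of the Ensembl canonical start of a protein-coding gene, against 59.4% of the other peaks and a background of 58% over all peaks under 3 kb. A further 105 (background 7.94%) lay at other protein-coding starts, 141 (background 6.81%) at starts of long noncoding RNAs and 16 (background 1.28%) at starts of other genes. Together 1198 (57.7%) were at some annotated start, where the background was 74%. The remaining 879 (42.3%, against 24.2% of the other peaks and a background of 26%) were distal, meaning farther than 1 kb from any annotated start. Of these, 459 were intronic (background 13.5%), 394 intergenic (background 11.1%) and 26 exonic (background 1.43%). The share of distal peaks was higher inside than outside PML domains on 21 of 22 autosomes, and the chromosome X had no PML domain. The median distance of a distal peak to the nearest start was 20270 bp inside PML domains and 9485 bp outside.

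Promoter peaks inside PML domains had a higher median control fold than promoter peaks elsewhere, while their CpG content was close to that elsewhere. Fold enrichment is the authors' value for signal over background of each peak. Its median at canonical starts was 17.5 inside PML domains and 14.2 outside, at other starts 7.79 and 7.07, and at distal sites 4.79 and 4.58. Over all classes together the order was the other way, 8.05 inside and 9.54 outside, with more distal peaks inside. The median -log10 q, the authors' peak significance, was close at canonical starts, 116.7 inside and 111.0 outside. Median width was 1566 bp for canonical starts inside PML domains and 1408 bp outside, and 574 and 592 bp for distal peaks. The ratio of observed to expected CpG in the 300 bp around the summit had a median of 0.667 at canonical starts inside and 0.671 outside, while for distal peaks it was 0.314 inside and 0.396 outside.

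**Figure D1:**
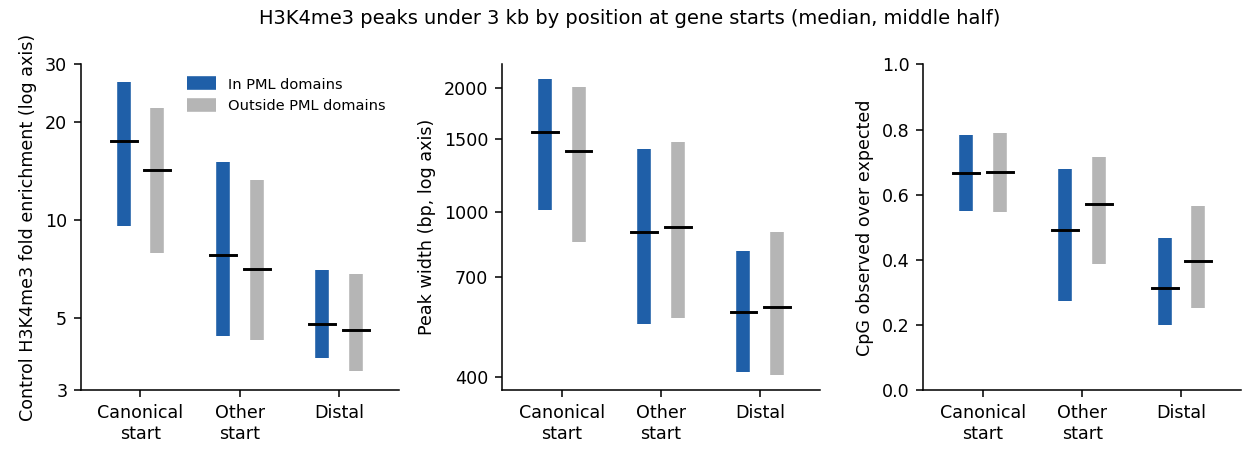
Control H3K4me3 fold enrichment (log axis), peak width in bp (log axis) and CpG observed over expected for peaks at canonical starts, other starts and distal sites, inside (blue) and outside (grey) PML domains; black lines are medians and bars span the 25th to 75th percentiles. Median fold at canonical starts is 17.5 inside and 14.2 outside, and the CpG medians there are 0.667 and 0.671.

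The strongest PML-domain peaks in the control list were all at canonical starts. The highest control fold was 76.1 at BBS10, a chaperonin-like protein of the ciliopathy Bardet-Biedl syndrome, followed by 67.0 at FAM98B, a tRNA ligase complex subunit. SVIP, an inhibitor of endoplasmic-reticulum-associated degradation, had 63.1, and the zinc-finger gene ZNF215 had 60.8. The next were TMEM260 with 58.9, ORC5, a subunit of the origin recognition complex, with 58.2, and ZNF317 with 55.3. COX10, which acts in heme A synthesis for cytochrome c oxidase, had 55.2. TMX3, an endoplasmic reticulum oxidoreductase, had 55.0, and CENPW, a kinetochore protein, had 54.2. All 10 had a knockdown H3K4me3 peak and an H3K27ac peak in both lists. The LMNB1 lists held 6 of these 10 in knockdown and 6 in control, so a strong promoter peak also occurred in chromatin called as LMNB1 domain. BBS10 carried H3K27ac peaks of 11.8-fold in knockdown and 5.93-fold in control, on separate scales that cannot be set against each other as a change.

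Of the 19970 protein-coding genes, 2612 (13.1%) had their canonical start in a PML domain. A control H3K4me3 peak of any width stood at 1115 of these starts (42.7%), against 64.7% of starts outside and a background of 61.8%. With the knockdown list the count inside was 1135 (43.5%). Starts in PML domains without control LMNB1 were marked in 60.3% of 478 genes, starts with LMNB1 and no H3K9me3 in 56.2% of 1049, and starts with both in 21.8% of 1085. Unmarked starts inside PML domains were thus most frequent where LMNB1 and H3K9me3 were both called. Peaks of the examined set stood at the start of 879 genes, 4.4% of all protein-coding genes.

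Named gene groups were counted against that 4.4%. A gene could count only if its start lay in a PML domain or close to its edge. Starts in PML domains made up 13.1% of all protein-coding genes. They made up 35.7% of zinc-finger, 35% of metastasis-associated, 44.4% of axon guidance and 23.1% of interferon-response genes. For the other groups with any peak they made up between 14% and 33.3%. The part of location in the counts below was not tested. The groups were lists of textbook members, chosen with earlier results of these data known, and no list was tested. Zinc-finger genes with a ZNF symbol had a PML-domain peak at 148 of 516 starts (28.7%). Among metastasis-associated genes 4 of 20 had one, namely PTGS2, which encodes cyclooxygenase-2, TNC, which encodes tenascin C, ROBO1 and KYNU. The axon guidance and neurite adhesion list had 8 of 45, including NEGR1, SEMA3E, CNTN1, CNTN5 and ROBO2. Interferon-response genes had 4 of 26, extracellular matrix genes 3 of 30, receptor tyrosine kinases 3 of 50, EMT genes 1 of 15, inflammatory factors 1 of 17, basal and caveolin genes 1 of 11, and solute carriers 12 of 385. Ribosomal protein genes had 0 of 95 and proteasome genes 0 of 40, and 1 ribosomal protein gene and 0 proteasome genes started in a PML domain at all. Of all starts in PML domains, 42.7% had a control peak of any width. Among ZNF genes it was 152 of 184, metastasis-associated 4 of 7, axon guidance 12 of 20 and interferon-response 4 of 6. Extracellular matrix genes had 4 of 8, receptor tyrosine kinases 3 of 7 and basal and caveolin genes 3 of 3. EMT genes had 2 of 5, inflammatory factors 1 of 3 and solute carriers 17 of 54.

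Single members of these groups ranged from weak to strong. MET, the hepatocyte growth factor receptor, carried 2 peaks at its start, with control folds of 23.1 and 7.87. The wider one lay 8107 kb inside its domain, in LMNB1 domains of both conditions, and overlapped H3K27ac peaks of 17.1-fold in knockdown and 10.6-fold in control. PTGS2 had an H3K4me3 fold of 58.8 in knockdown and 26.3 in control. IFIH1, which encodes the cytosolic RNA sensor MDA5, had 45.2 in knockdown and 29.6 in control. ZEB2, a transcription factor of epithelial-mesenchymal transition, had 24.7 in knockdown and 12.7 in control. PLOD2, a collagen lysyl hydroxylase, had 18.6 in knockdown and 28.6 in control, and the metalloproteinase inhibitor gene TIMP3 had 33.7 in knockdown and 23.6 in control. These pairs come from lists on separate scales; over the PML-domain peaks found in both lists the median fold was 15.0 in the knockdown list, and the median control fold was 8.65. ERBB4, NEGR1, CNTN1, CNTN5 and ROBO2 had H3K4me3 peaks in both lists and no H3K27ac peak in either. Their control H3K4me3 folds lay between 8.41 and 17.6, and all 5 starts were in LMNB1 domains of both conditions. Over the whole axon guidance list, 1 of its 9 peaks overlapped H3K27ac in knockdown and 1 in control. Of all canonical-start peaks in PML domains, 70.9% did so in knockdown and 69.3% in control. Those had a median control fold of 17.5, and the 9 axon guidance peaks one of 8.41. Among PML-domain peaks with a control fold from 4.86 to 9.41, H3K27ac overlapped 53.2% in knockdown and 53.4% in control.

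Zinc-finger promoters on chromosome 19 lay mostly inside H3K9me3 domains. Over all ZNF promoters the count was 93 of 142 peaks in knockdown and 132 of 142 in control. Of all canonical-start peaks in PML domains, 16.8% were in H3K9me3 domains in knockdown and 31.0% in control. Of the 142 ZNF peaks, 131 were on chromosome 19, and of these 92 lay in knockdown H3K9me3 domains and 130 in control ones. Of the 11 ZNF peaks elsewhere, 1 lay in knockdown H3K9me3 and 2 in control H3K9me3. Chromosome 19 peaks in PML domains as a whole, ZNF or not, had 133 of 189 in knockdown H3K9me3 and 182 in control. LMNB1 domains held 54 of the 131 in knockdown and 79 in control. H3K27ac peaks overlapped 120 of the 131 promoter peaks in knockdown and 116 in control. The H3K9me3 status is that of the broad domain around the peak midpoint, so it does not show H3K9me3 at the promoter itself. Of all canonical-start peaks in PML domains, 70.9% had H3K27ac in knockdown and 69.3% in control. Among PML-domain peaks with a control fold of 18.0 or more, these shares were 90.5% and 92.6%. None of the 131 was without a knockdown H3K4me3 peak, beside 0.962% of all canonical-start peaks in PML domains. ZNF431 had H3K4me3 folds of 41.8 in knockdown and 50.4 in control within H3K9me3 domains of both conditions. The H3K4me3 median fold of the 131 was 20.5, above the 17.5 of all canonical starts in PML domains. ZNF genes are close paralogs in clusters, and the treatment of reads that map to several copies is not stated, so single ZNF values are uncertain.

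The peaks lay throughout the domains and were densest next to the edge. The median distance to the nearest domain edge was 934 kb. The outermost 50 kb held 152 peaks, or 3.62 per Mb, the highest density of the 6 distance classes. From 50 to 100 kb the density was 2.25 per Mb, then 2.17, 1.96 and 1.71 per Mb, and beyond 1000 kb it was 2.21 per Mb with 1006 peaks. The share of peaks in a knockdown LMNB1 domain was 38.2% in the outermost 50 kb and 78.9% beyond 1000 kb, and in a control LMNB1 domain it was 46.7% and 84.5% at the same distances. The deepest promoter peaks lay in a domain of chromosome 12, at PPFIA2 11067 kb inside, ACSS3 11058 kb, LIN7A 10917 kb and CCDC59 10468 kb. PPFIA2 encodes the synaptic scaffold liprin-alpha-2, and ACSS3 a mitochondrial acyl-CoA synthetase. The interferon-induced neighbours IFI44L and IFI44 were 10219 and 10188 kb inside their domain on chromosome 1, with H3K27ac peaks in both lists. PPFIA2 had no H3K27ac peak in either list, while its H3K4me3 fold was 27.9 in knockdown and 12.2 in control.

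**Figure D2:**
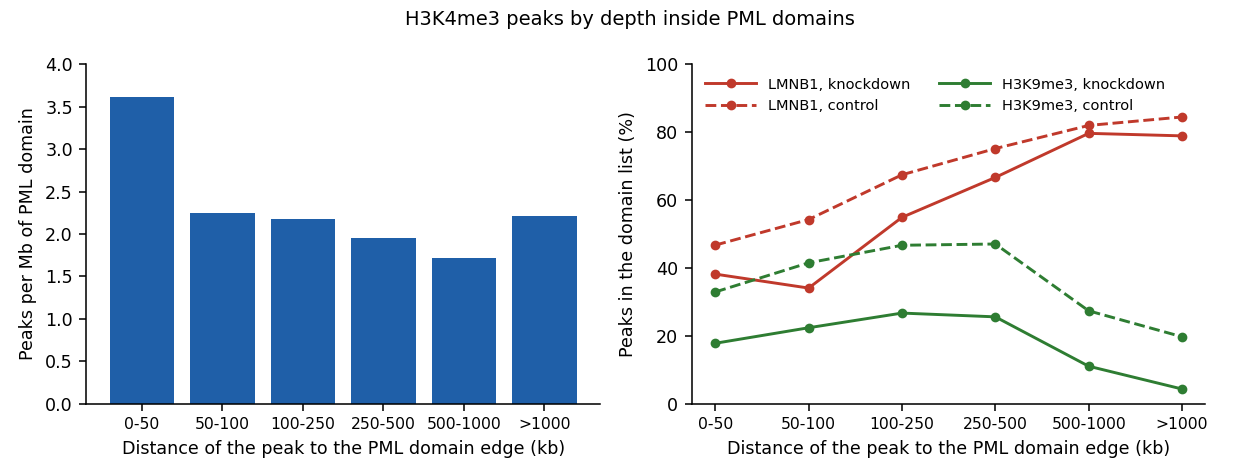
Left, H3K4me3 peaks per Mb of PML domain by distance of the peak midpoint to the nearest domain edge in kb; right, share of the peaks (%) in LMNB1 (red) and H3K9me3 (green) domains of knockdown (solid) and control (dashed) at the same distances. Density is 3.62 per Mb in the outermost 50 kb and 2.21 per Mb beyond 1000 kb, and the H3K9me3 share beyond 1000 kb is 4.27% in knockdown and 19.7% in control.

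Values close to the limits of the choice were as follows. The widest peaks kept were at IKZF2, 2991 bp, and near NFU1P2, 2988 bp, and the narrowest left out were near PRICKLE1, 3012 bp, and TNFSF18, 3015 bp. By position, the peaks nearest to an edge inside were 0.464 kb in, at ENSG00000231424, and 0.5 kb in, at ATG4C, while peaks near NR4A3 and at B3GALT1 lay 0.188 and 0.488 kb outside. The width limit left out 222 PML-domain peaks of 3 kb or more, among them those at CAV1, CAV2, CDH11, SEMA3A, SEMA3C and FBN1.

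Most PML-domain peaks lay in LMNB1 domains, though less often than the PML domain length did. In knockdown 1443 peaks (69.5%) were in an LMNB1 domain, and in control 1593 (76.7%); the backgrounds over all control peaks under 3 kb were 8.18% and 8.95%. LMNB1 domains covered 85.9% of PML domain length in knockdown and 89.6% in control. Both lists held 1397 peaks (background 7.5%), the knockdown list alone 46 (background 0.686%), the control list alone 196 (background 1.45%) and neither 438 (background 90.4%). Peak density was 5.37 per Mb where neither list had an LMNB1 domain, 2.35 per Mb where only knockdown had one, 3.57 per Mb where only control had one and 1.72 per Mb where both had. By control fold, the strongest promoter in knockdown LMNB1 only was RRP15, a ribosomal RNA processing gene, with H3K4me3 folds of 84.3 in knockdown and 50.4 in control. In control LMNB1 only it was CWF19L2, with 40.8 in knockdown and 51.5 in control, followed by SRSF11, a splicing factor gene, with 41.2 in knockdown and 45.4 in control.

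H3K9me3 domains held 261 PML-domain peaks (12.6%) in knockdown and 615 (29.6%) in control, where the backgrounds were 6.49% and 5.36%. Outside PML domains the shares were 5.81% in knockdown and 2.63% in control. The knockdown share was higher inside than outside on 10 of 22 autosomes and lower on 12, and the control share was higher inside on 22 of 22. The 2 lists differ in extent as a whole, with 361 Mb in knockdown and 629 Mb in control, and within PML domains H3K9me3 covered 13.7% of the length in knockdown and 42.9% in control. Both lists held 257 peaks (background 2.86%), the knockdown list alone 4 (background 3.63%), the control list alone 358 (background 2.5%) and neither 1458 (background 91%). The 4 in the knockdown list alone were at THUMPD1, RUSF1, LINC02168 and TRIB2 and were named after their values were seen. SVIP, ORC5, COX10 and MRPL50, a mitochondrial ribosomal protein gene, were the strongest promoters in control H3K9me3 only. SVIP had H3K4me3 folds of 56.6 in knockdown and 63.1 in control, ORC5 61.8 in knockdown and 58.2 in control, COX10 119.7 in knockdown and 55.2 in control, and MRPL50 99.6 in knockdown and 48.8 in control. Chromosome 19 supplied 51.0% of the peaks in knockdown H3K9me3 and 29.6% of those in control H3K9me3. Without it the knockdown share was 6.78%, against 5.84% of the other peaks, and the control share 22.9%, against 2.45%, a setting chosen after seeing the data.

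**Figure D3:**
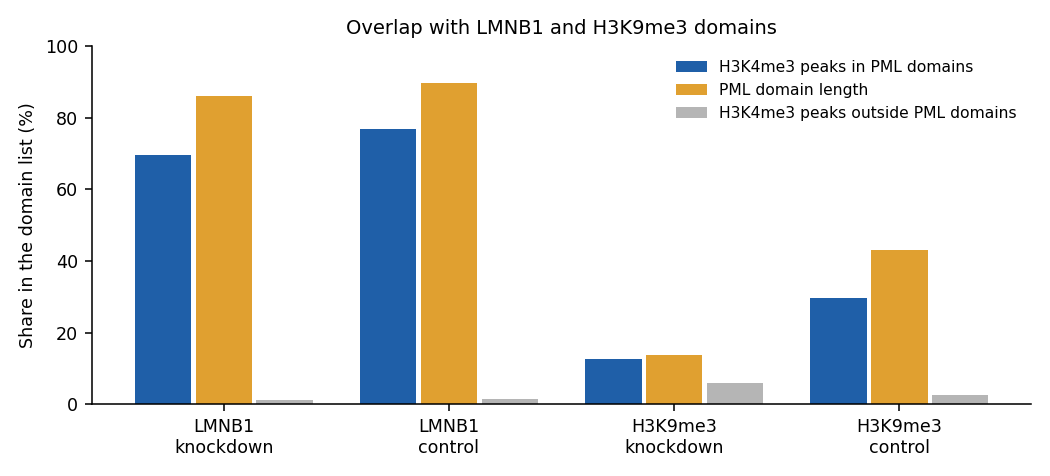
Share (%) lying in LMNB1 or H3K9me3 domains of knockdown and control cells, for H3K4me3 peaks in PML domains (blue), PML domain length (orange) and H3K4me3 peaks outside PML domains (grey). For LMNB1 the peaks in PML domains stand at 69.5% in knockdown and 76.7% in control, below the length at 85.9% and 89.6%.

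H3K27ac accompanied most PML-domain peaks in either condition. The knockdown H3K27ac list overlapped 1398 (67.3%), against 74.8% of the other peaks and a background of 74.1%. The control list overlapped 1420 (68.4%), against 71.0% of the other peaks and a background of 70.7%. The knockdown share was lower inside than outside PML domains on 20 of 22 autosomes, and the control share on 15 of 22. Both lists overlapped 1326 peaks (background 68.3%), knockdown alone 72 (3.47%, background 5.82%), control alone 94 (4.53%, background 2.48%), and neither 585 (background 23.4%). By class, the shares in the knockdown and control lists were 70.9% and 69.3% at canonical starts and 62.7% and 67.3% at distal sites. Outside PML domains they were 75.9% and 70.8% at canonical starts and 73.2% and 72.8% at distal sites. Where LMNB1 was called in both conditions, 61.6% overlapped H3K27ac in knockdown and 63.6% in control, against 82.6% and 80.6% where it was called in neither. Strong promoters with H3K27ac in knockdown only were KCNS3, a potassium channel subunit gene, ZNF17, LRRIQ1 and CYP39A1. In control only they were PLA2G4A, the cytosolic phospholipase A2 gene, CADPS2, CFAP69 and CRISPLD1. Their H3K27ac folds were at most 5.74 for the knockdown genes and 4.91 for the control genes, below the medians of 9.79 and 7.83 over PML-domain peaks with knockdown and with control H3K27ac.

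Nearly all PML-domain peaks were found again in the knockdown H3K4me3 list. Without an overlapping knockdown peak were 74 (3.56%), against 1.01% of the other peaks and a background of 1.26%, and the share was higher inside than outside PML domains on 20 of 22 autosomes. The knockdown list is the longer one, with 27760 peaks against 22211. When both lists were taken at equal size, 12.2% of PML-domain peaks and 3.94% of the other peaks had no knockdown peak. Absence from a list does not show absence of the mark. The 74 were weak in control, with a median fold of 3.93 against 8.65 for the rest, and none exceeded 7.24. Peaks were split into 4 equally filled classes of control fold. In the lowest class, up to 4.84, 10.6% of PML-domain peaks and 3.38% of the other peaks had no knockdown peak, and in the next class 1.72% and 0.671%. In the lowest of 4 such classes of -log10 q, the authors' peak significance, the shares were 8.96% and 3.78%. LMNB1 domains held 61 of the 74 (82.4%) in knockdown and 65 (87.8%) in control, beside 69.5% and 76.7% of all PML-domain peaks and backgrounds of 8.18% and 8.95%. Among all distal PML-domain peaks the LMNB1 shares were 74.7% in knockdown and 79.75% in control. H3K27ac overlapped 15 of the 74 (20.3%) in knockdown and 24 (32.4%) in control, beside 67.3% and 68.4% of all PML-domain peaks and backgrounds of 74.1% and 70.7%. In the lowest class of control fold, H3K27ac overlapped 57.4% of all PML-domain peaks in knockdown and 60.1% in control.

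**Figure D4:**
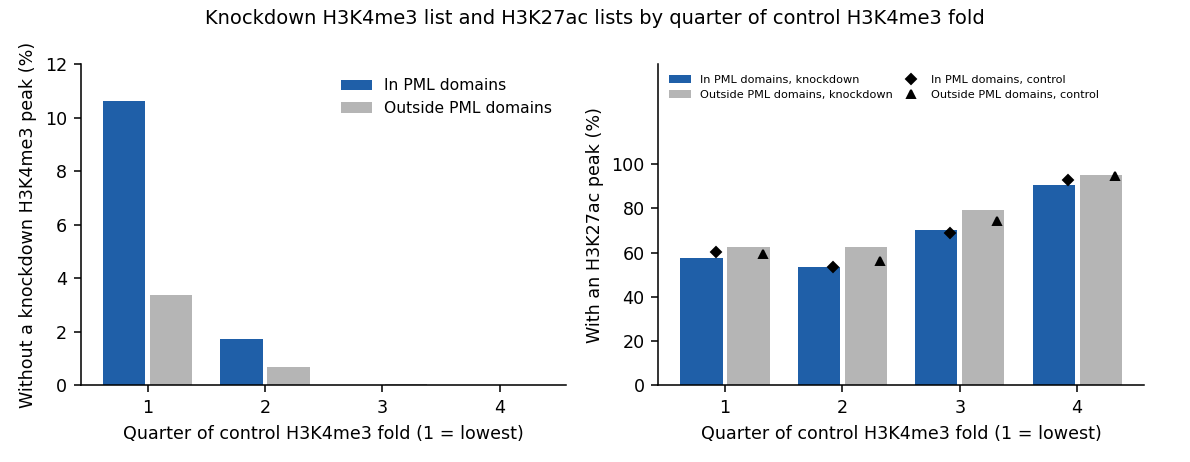
Peaks in 4 equally filled classes of control H3K4me3 fold (1 = lowest), inside (blue) and outside (grey) PML domains: left, share (%) without a knockdown H3K4me3 peak; right, share (%) with an H3K27ac peak, with bars for the knockdown list and symbols for the control list. The share without a knockdown peak in the lowest class is 10.6% inside and 3.38% outside, and in the upper 2 classes it is 0% inside.

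By position 57 of the 74 were distal, 8 at other starts and 9 at canonical starts. Of all PML-domain peaks 42.3% were distal and 45.1% at canonical starts, with backgrounds of 26% and 58%. The lowest class of control fold held 65 of the 74, and there 12.8% of all PML-domain peaks were at canonical starts. The position of the 74 was thus near that of weak peaks in PML domains. The 9 were RUNX2, the osteoblast transcription factor, with control fold 5.96, KLRC3, a natural killer cell receptor, with 4.38, KYNU, the tryptophan-catabolic enzyme kynureninase, with 4.37, and ESRRG, an orphan nuclear receptor, with 4.24. KCNMB4, a potassium channel subunit, had 3.99, CDH12, a cadherin, 3.93, SLITRK6, a neuronal transmembrane protein, 3.68, PTGER3, a prostaglandin E receptor, 3.15 and TMEM100 3.09. Of these 9 starts, 7 lay in LMNB1 domains in both conditions, with RUNX2 and KLRC3 in neither. That is near the share of all canonical-start peaks in PML domains, 65.9% in knockdown LMNB1 and 74.6% in control LMNB1. None of the 9 had a knockdown H3K27ac peak, and KLRC3 and KYNU had control H3K27ac peaks of 3.09 and 3.11-fold. The distal peaks with the highest control fold among the 74 were near PNRC2P1, 7.24, and ENSG00000287802, 6.36, and were named after their values were seen.

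The peaks were unevenly shared among the 420 PML domains. At least 1 peak lay in 308 domains and none in 112, while 57 domains with 10 or more held 1235 peaks (59.5%). The median length was 1562 kb for domains with a peak and 585 kb for those without. The 5 domains with the most peaks were chr1:68391001-88839000 with 79, chr12:70020001-92826000 with 67, chr11:88011001-107568000 with 59, chr6:44748001-58446000 with 59 and chr7:108567001-127566000 with 52. These are long domains, with 3.86, 2.94, 3.02, 4.31 and 2.74 peaks per Mb in that order, against 2.14 over all PML domains. Short domains could be far denser, as chr19:11601001-12465000 with 25 peaks, or 28.9 per Mb. The chromosome 1 domain holds SRSF11, IFI44L and IFI44, that on chromosome 12 BBS10 and the deepest promoters, and that on chromosome 7 MET. In the chromosome 1 domain, 55 of the 79 peaks were in knockdown LMNB1 and 59 in control LMNB1. Of the same 79, 0 were in knockdown H3K9me3 and 30 in control H3K9me3. The chromosome 6 domain had 4 in knockdown H3K9me3 and 10 in control, and that on chromosome 11 had 0 and 5. The domains on chromosomes 12 and 7 had 0 in either H3K9me3 list. Over all PML-domain peaks the H3K9me3 shares were 12.6% in knockdown and 29.6% in control. The longest domains without a peak were chr2:122058001-126171000, chr2:114228001-117612000 and chr16:5247001-8586000.

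Short motifs were counted on both strands of the 300 bp around each summit. In TGANTCA, N stands for any base, so its shares also count sites other than the AP-1 core. TGANTCA occurred in 15.5% of distal PML-domain peaks and 12.8% of distal peaks outside, and in 3.31% and 3.09% of peaks at canonical starts. Among distal PML-domain peaks it was in 17.9% of those with control H3K27ac and 10.5% of those without, and among distal peaks outside in 14.4% and 8.56%. GGGCGG, the core of Sp1 and KLF sites, was in 35.5% of canonical starts inside PML domains and 42.2% outside, and in 6.6% and 18.9% of distal peaks. CCAAT, read by NF-Y, was in 23.8% and 21.4% of canonical starts and in 32.4% and 25.8% of distal peaks, inside and outside. CCGGAAG, an ETS core, was in 4.81% and 5.42% of canonical starts and in 1.93% and 2.96% of distal peaks. Base composition differed between the sets, with a median GC of 52.3% inside and 59.0% outside, and its part in these shares was not tested.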

How the data were processed

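The submitters' processing notes name MACS2 2.2.7.1, deepTools, BWA 0.7.12-r1039 and Picard 1.104, each without its role, and the build hg38. Domains in the deposited files carry a score without a stated unit, which was not used. Fold enrichment of a peak is a ratio given by the authors in the deposited peak lists. Significance is a -log10 q-value given by the authors in the deposited peak lists, where the lowest was 1.30. Peak names in the deposited files show that both replicates were called together, and for domains this is not stated. Reading the file marks ct and pml as control and PML knockdown is an assumption. Bounds of domains fall on steps of 9 kb for PML, 22 and 17 kb for knockdown and control LMNB1, and 35 and 23 kb for knockdown and control H3K9me3. Depth cannot be read from these lists, so no precision was derived from it, and replicates are not stated to come from separate cultures.

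A peak was in a domain when its midpoint was, and peaks overlapped at 1 bp, taking the highest fold where several peaks overlapped. Starts came from GENCODE release 44 and sequence from the matching hg38 reference, in 300 bp around the summit. No test was possible with 1 list per target and condition, so counts, shares and medians are given. Libraries of H3K27me3 and of input were not used here. The members and gene lists were chosen with earlier results of these data known. Genes were named by rule: the 10 highest control folds, promoter peaks without a knockdown peak, the 6 deepest promoters, up to 6 promoters in control H3K9me3, up to 6 whose LMNB1 or H3K9me3 status differed, up to 5 per gene list, the 5 domains with the most peaks and the 3 longest with none. SRSF11, the genes with H3K27ac in 1 condition only, the 4 genes in knockdown H3K9me3 only, the printed distal peaks and the wide peaks left out fall outside this rule and were chosen after their values were seen. The same holds for the chromosome 19 domain given for its density. Alternatives were other widths, thresholds, edges, promoter sizes, overlaps and list sizes. The scripts used pysam 0.24.0, samtools 1.23.1, pandas 2.3.3, numpy 2.4.6, scipy 1.17.1 and matplotlib 3.10.9 under Python 3.11.15, and overlap code was checked on simulated intervals and against bedtools 2.31.1.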

Additional observations from a re-analysis of the deposited data

How the results depend on the processing

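Of 56 alternative shares and medians, 28 stayed within the 95% exact binomial interval of the share or the matching interval of the median, and 28 moved beyond it. These intervals treat peaks as independent and cover counting error only. A further 7 alternatives were counts of peaks or genes, and all 7 stayed within 1.5 times the reported count. The order of PML-domain peaks against the other peaks was kept in 52 of the 52 comparisons that have both. With no width limit, the share at canonical starts was 49.4%, in control H3K9me3 27.6%, with H3K27ac 70.4% in knockdown and 71.4% in control, the median fold 9.41 and the CpG ratio 0.542. A -log10 q of at least 5 was also required of the H3K27ac peaks and of the knockdown H3K4me3 peaks. Lower H3K27ac shares under it thus do not mean that more significant H3K4me3 peaks carry less H3K27ac. With this limit, canonical starts were 52.5%, H3K27ac 62.6% in knockdown and 60.1% in control, and peaks without a knockdown peak 2.74%. The median fold was 10.5 and the CpG ratio 0.573. At least 50 kb inside the edge, LMNB1 held 71.9% in knockdown and 79.1% in control, and the median edge distance was 1085 kb. Without chromosome 19, a setting chosen after seeing the data, canonical starts were 41.5%, knockdown LMNB1 71.7%, H3K9me3 6.78% in knockdown and 22.9% in control, the edge distance 1079 kb, the fold 7.27 and the CpG ratio 0.502. Promoters of 500 bp gave 42.6% and any transcript start 50.1%. Requiring 50% of the peak to be covered gave H3K27ac shares of 58.4% in knockdown and 57.4% in control, where the other peaks had 65.0% and 57.5%. Lists of equal size gave 12.2% without a knockdown peak, and the CpG ratio over the whole peak was 0.499. The cause of these moves was not tested. No paired analysis was possible because the lists hold pooled columns without replicate numbers, and leaving out a replicate was not possible for the same reason.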

Other observations

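The knockdown H3K4me3 list also held peaks under 3 kb in PML domains with no control counterpart. These were 947 of 2784 knockdown peaks inside PML domains (34.0%) and 6484 of 22056 outside (29.4%). Their median knockdown fold was 4.44 inside and 4.18 outside, where knockdown peaks shared with the control list had 13.5 and 17.8. The knockdown list is longer than the control list, and the difference was not tested.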
